A study of Mesocricetus auratus with 6 samples.

Results

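Mitochondrial ribosomal proteins were followed in hamster uterus on day 5 of pregnancy, at implantation sites against interimplantation sites of Syrian golden hamsters. Members were all probe sets whose platform annotation names a single gene with a symbol of MRPL or MRPS and a number. This gave 64 of 22215 probe sets, for 51 genes: 35 probe sets (31 genes) of the large subunit and 29 (20 genes) of the small subunit. One further probe set names an MRPS31 pseudogene together with THSD1 and was left out. Implantation sites were pieces of uterus that held an embryo, and interimplantation sites were pieces without one. Both groups came from untreated pregnant animals, with 3 arrays each, and no label gives the age or strain of an animal. The design speaks of 3 animals, but no label ties an array to an animal, so p-values here describe only how these arrays vary. Nothing in the labels says whether embryo tissue stayed in the pieces with an embryo.

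Mitochondria keep a small genome of their own, which encodes core subunits of the respiratory chain and of ATP synthase, and a ribosome of their own to translate it. The RNAs of that ribosome come from mitochondrial DNA, while every one of its proteins is encoded in the nucleus, made in the cytosol and imported. The large subunit joins amino acids and sits on the inner membrane, where new chains are inserted, and the small subunit decodes the messenger RNA. Some of the proteins descend from bacterial ribosomal proteins and others are found in mitochondria only. The uterine stroma around an implanting rodent embryo is known to proliferate and then to differentiate into decidua, and dividing cells make new mitochondria as they grow.

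Hamster RNA was read with probes designed on human transcripts. Each value is a log2 RMA value of a probe set, the brightness of its probes after background correction and normalization across arrays. A dim probe set can mean little transcript or a poor match between the hamster transcript and the human probes, so levels were not compared between probe sets. Of the 64, 33 had a mean at or over the median of all probe sets (4.19), here called bright, and 18 lay below the first quartile (3.10), here called dim. By symbol, 49 of the 51 genes were found among the hamster genes of RefSeq (assembly BCM_Maur_2.0).

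No mitochondrial ribosomal protein passed the test in either direction. At an adjusted p under 0.05 (limma, Benjamini-Hochberg over 22215 probe sets), 0 of 64 probe sets were higher and 0 were lower at implantation sites. Over all probe sets, 0.702% were called higher and 0.356% lower. The lowest adjusted p of a member was 0.230. At an unadjusted p under 0.05, 3 members were higher, MRPL11, MRPL12 and MRPS16, and 0 were lower, or 4.69% and 0% of 64. The same rule held for 5.27% of all probe sets on the higher side and 5.23% on the lower side, so the higher count was near the background. The small-subunit part of that count changed when single arrays were left out. Without implantation site 1, or without any 1 of the interimplantation sites, 0 small-subunit probe sets were under 0.05, and without implantation site 2 there were 2. The difference at MRPS16 was 0.11 without implantation site 1. Without interimplantation sites 1, 2 and 3 in turn it was 0.23, 0.21 and 0.21, near the 0.22 of all arrays. The large subunit had 2 to 4 such probe sets when single arrays were left out, with 4 without interimplantation site 1 and 3 without interimplantation site 3. With bright probe sets only it had 1. MRPL11, MRPL12 and MRPS16 are each read by a probe set of the _s_at type. Without _x_at and _s_at probe sets, 0 members of either subunit were under 0.05.

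The differences were small as well as uncalled. They ran from −0.17 at a probe set of MRPS12 to 0.38 at MRPL12 (log2 implantation minus interimplantation), and no 95% interval of a member went past 0.64 in either direction. For 63 of 64 members the whole interval lay within 1.5-fold either way, and for 49 it lay within 1.25-fold. The corresponding shares over all probe sets were 97.7% and 72.4%, against 98.4% and 76.6% of the members. The exception to the 1.5-fold limit was MRPL12. These intervals cover what the probe sets read, and for the 18 dim members a poor match of the probes can hide a change.

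**Figure D1:**
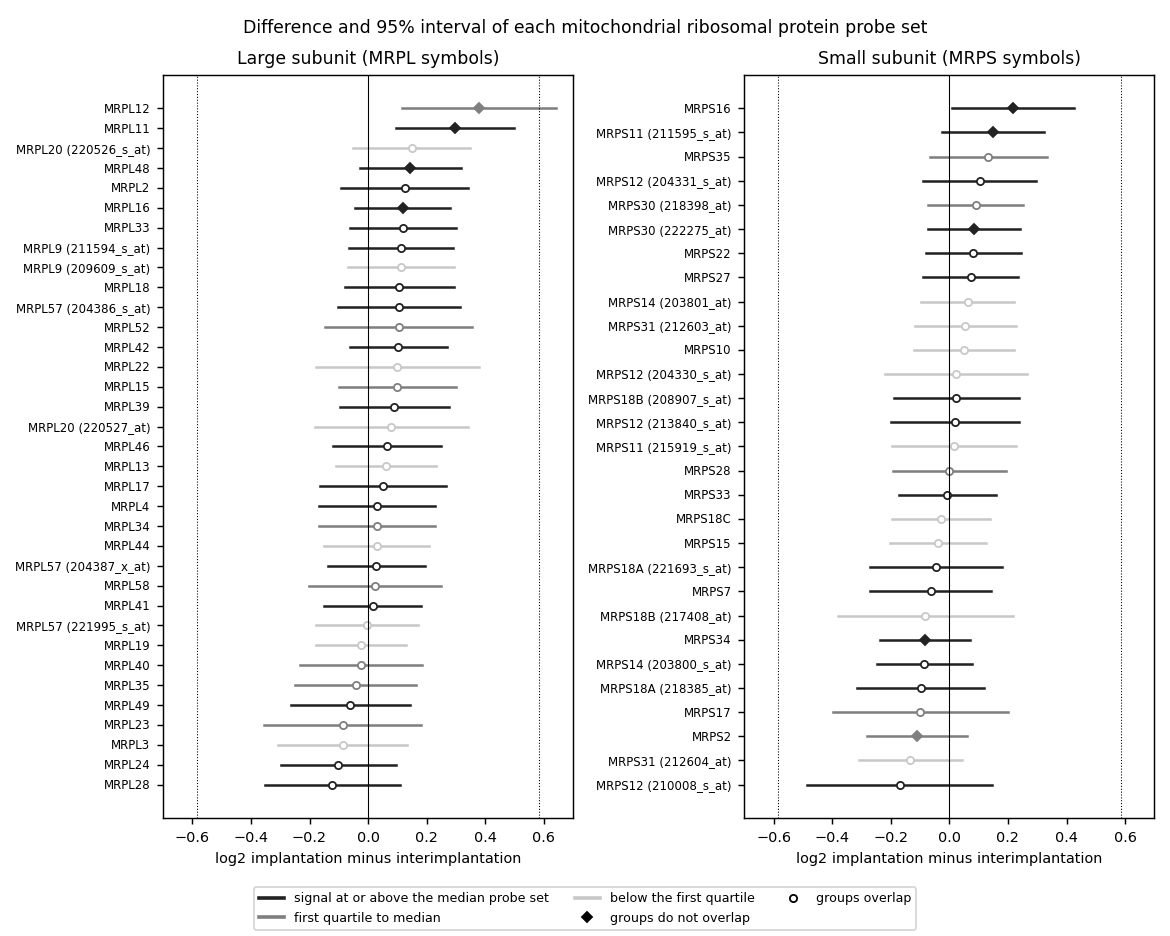
Each row is a probe set of a mitochondrial ribosomal protein, with the difference (log2 implantation minus interimplantation) as a point and its 95% interval from limma as a bar; dotted lines mark 1.5-fold and the shade gives the brightness. MRPL12, MRPL11 and MRPS16 are the probe sets whose intervals leave out 0, and 9 diamonds mark groups that did not overlap.

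More large-subunit than small-subunit probe sets had a positive difference. Among large-subunit probe sets 26 of 35 had a difference above 0 (74.3%), among small-subunit ones 15 of 29 (51.7%), and among all probe sets 46.4%. The median difference was 0.06 for the large subunit, 0.01 for the small subunit and −0.01 over all 22215 probe sets. These medians are descriptions of the arrays, and the difference between the subunits was not tested. The large-subunit median was 0.03 without interimplantation site 1 and 0.04 without implantation site 1. For cytosolic ribosomal proteins the median over 91 probe sets was −0.05, with 33% above 0 and 0 called in either direction. When an unadjusted p under 0.05 was taken, 2 of those were higher (2.2%) and 10 lower (11%), beside the 5.27% and 5.23% of all probe sets.

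Averaged over its 35 probe sets, the large subunit was at 4.24, 4.22 and 4.24 in implantation sites 1 to 3, against 4.14, 4.17 and 4.21 in interimplantation sites 1 to 3. The groups did not overlap in this average, and interimplantation site 1 was the lowest array. Over the 29 probe sets of the small subunit the averages were 4.09, 4.09 and 4.05 in implantation sites, against 4.04, 4.07 and 4.11 in interimplantation sites. Here the groups overlapped, and interimplantation site 3 was the highest array. The median over the same 29 probe sets was at 4.26, 4.24 and 4.21 in implantation sites, against 4.21, 4.19 and 4.08 in interimplantation sites. By that measure the groups did not overlap, though the nearest arrays are equal at this rounding. In each array this median is the value of a single probe set, of MRPS30 or of MRPS12. It therefore describes that probe set and not the 29 together. For the large subunit the median was at 4.41, 4.40 and 4.28 in implantation sites, against 4.13, 4.27 and 4.26 in interimplantation sites. Again the groups did not overlap. There the median is the value of a probe set of MRPL39, MRPL57 or MRPL33, depending on the array. These medians thus set levels of different probe sets side by side, and their lack of overlap is not a result about the members as a set. For the small subunit the mean and the median of the members thus order the arrays differently, with interimplantation site 3 highest by the mean and lowest by the median. Interimplantation site 1 was the lowest of its group at 32 of 64 members (50%), against 35.5% of all probe sets. The mean over all probe sets lay between 4.20 and 4.21 in implantation sites and between 4.21 and 4.22 in interimplantation sites.

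**Figure D2:**
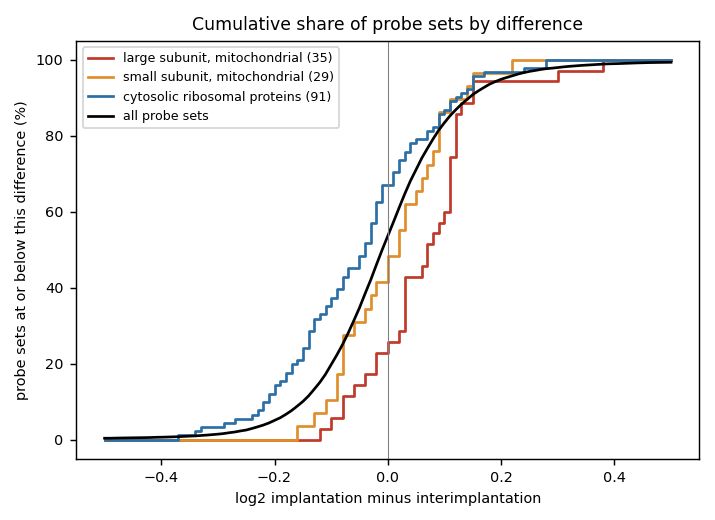
Curves give the share of probe sets (percent) at or below each difference (log2 implantation minus interimplantation) for the large and small mitochondrial subunits, cytosolic ribosomal proteins and all probe sets. Around the medians, the large subunit lies to the right of all probe sets, with a median of 0.06. The cytosolic ribosomal proteins lie to the left, with a median of −0.05. At a difference of 0.15 the large-subunit share was 0.943, against 0.908 of all probe sets, so the shift to the right does not hold there.

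The largest differences in the large subunit belonged to the stalk, the flexible arm that recruits translation factors with GTPase activity. MRPL12, a stalk protein that is also known to bind the mitochondrial RNA polymerase, was at 4.57, 4.28 and 4.26 in implantation sites, against 3.73, 4.15 and 4.10 in interimplantation sites. All 3 implantation arrays were above all 3 interimplantation arrays, and interimplantation site 1 stood below the other two. The difference was 0.38 ± 0.12 SE (1.3-fold, 95% interval 0.11 to 0.64, limma adjusted p = 0.245). Without interimplantation site 1 it was 0.25 (limma adjusted p = 0.412).

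MRPL11, which forms the base of the stalk, was at 5.04, 4.88 and 4.84 in implantation sites, against 4.50, 4.78 and 4.60 in interimplantation sites. The groups did not overlap here either, and interimplantation site 1 was again the lowest. The difference was 0.30 ± 0.09 SE (1.23-fold, 95% interval 0.09 to 0.50, limma adjusted p = 0.230), and it ranged from 0.23 to 0.37 when single arrays were left out. That both belong to the stalk was seen after their values were known. Of the other stalk proteins, MRPL10, MRPL53 and MRPL54 were not analysed here.

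In the small subunit MRPS16, a protein of the body of the subunit with a bacterial counterpart, had the lowest p. It was at 5.86, 5.59 and 5.50 in implantation sites, against 5.46, 5.41 and 5.43 in interimplantation sites. Implantation site 1 was well above the other arrays, and the 3 interimplantation arrays lay close together. The difference was 0.22 ± 0.09 SE (1.16-fold, 95% interval 0.01 to 0.42, limma adjusted p = 0.446). Without implantation site 1 it was 0.11 (limma adjusted p = 0.736).

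Groups did not overlap at 9 of 64 members, 7 higher (10.9%) and 2 lower (3.12%), against 7.72% and 8.3% of all probe sets. Besides MRPL11, MRPL12 and MRPS16, the higher ones were MRPL48, MRPL16, MRPS30 and MRPS11. MRPL48, a mitochondrion-specific protein of the central protuberance, was at 5.56, 5.53 and 5.66 in implantation sites, against 5.34, 5.49 and 5.49 in interimplantation sites (difference 0.14 ± 0.08 SE). MRPL16, which lies near the bound transfer RNAs, was at 4.83, 4.89 and 4.90 in implantation sites, against 4.78, 4.81 and 4.68 in interimplantation sites (0.12 ± 0.07 SE). In both, the gap between the nearest arrays of the groups was small beside the spread within a group.

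MRPS11, a protein of the platform that lines the messenger RNA exit, was at 5.70, 5.70 and 5.80 in implantation sites, against 5.46, 5.67 and 5.62 in interimplantation sites (0.15 ± 0.08 SE). Its second, dimmer probe set was at 0.01 ± 0.10 SE, with overlapping groups. The lower probe sets were MRPS2 and MRPS34. MRPS2, a protein with a bacterial counterpart, was at 3.63, 3.64 and 3.47 in implantation sites, against 3.68, 3.74 and 3.65 in interimplantation sites (−0.11 ± 0.08 SE). Its groups nearly met, at 3.644 in implantation site 2 and 3.646 in interimplantation site 3. MRPS34, a mitochondrion-specific protein, was at 5.57, 5.58 and 5.50 in implantation sites, against 5.62, 5.63 and 5.64 in interimplantation sites. Its difference of −0.08 ± 0.07 SE was 1 of the more narrowly bounded ones, with a 95% interval of −0.24 to 0.07.

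**Figure D3:**
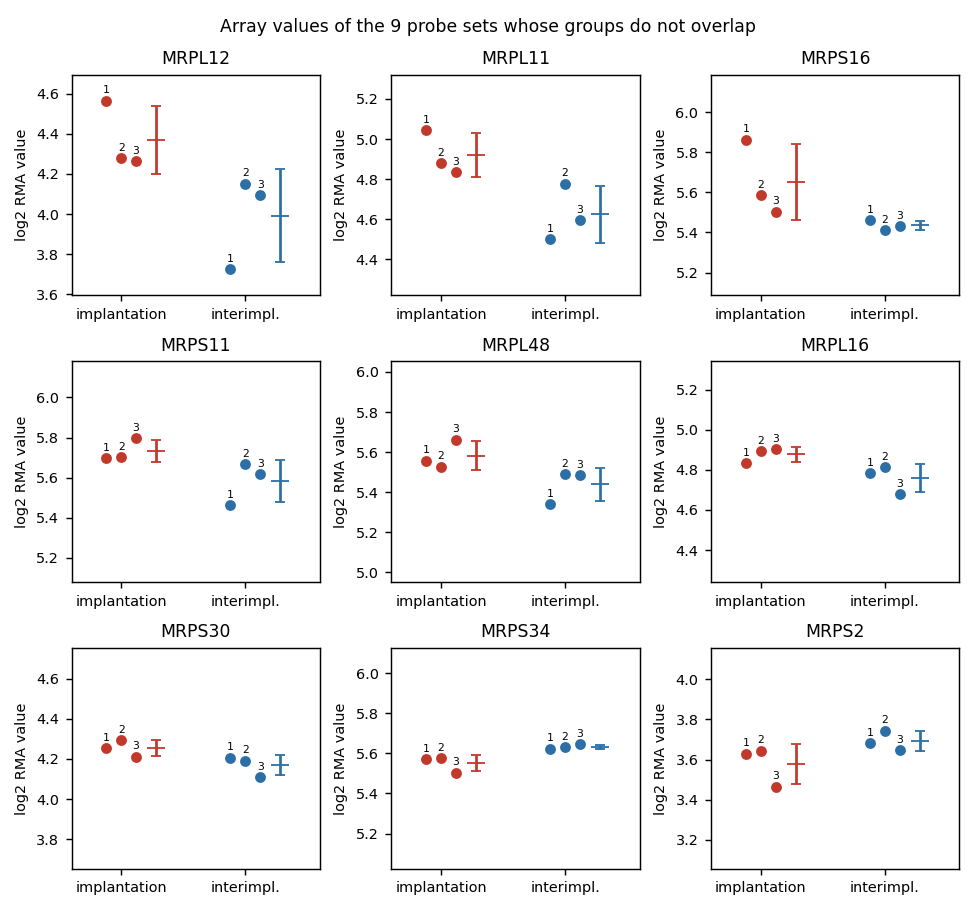
Points are log2 RMA values of arrays 1 to 3 of each group for the 9 probe sets whose groups did not overlap, with the mean and SD (n = 3) to the right; all vertical axes span the same range. MRPL12 at 4.26 to 4.57 in implantation sites and 3.73 to 4.15 in interimplantation sites has the widest separation of means. Gaps between the groups were narrow at MRPS2, MRPS30 and MRPL16, as described in the text.

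Large-subunit members around the peptide path showed no shared direction. MRPL2, a core protein next to the site of peptide bond formation, was at 6.26, 6.27 and 6.31 in implantation sites, against 6.0, 6.08 and 6.39 in interimplantation sites (0.12 ± 0.10 SE). MRPL3, another core protein, was dim in all arrays, at 2.86, 2.85 and 2.85 in implantation sites, against 3.14, 2.72 and 2.96 in interimplantation sites (−0.09 ± 0.10 SE). Interimplantation arrays spread further than implantation arrays in both, and the groups overlapped. MRPL4 and MRPL22, which line the exit tunnel, were at 0.03 ± 0.09 SE and 0.10 ± 0.13 SE.

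At the mouth of the tunnel, MRPL23 was at 3.93, 3.50 and 3.54 in implantation sites, against 3.58, 3.72 and 3.93 in interimplantation sites (−0.09 ± 0.12 SE). MRPL24, its neighbour there, was at 5.25, 5.35 and 5.46 in implantation sites, against 5.38, 5.38 and 5.61 in interimplantation sites (−0.10 ± 0.09 SE). MRPL17, also at the tunnel exit, and MRPL39, a mitochondrion-specific protein, were at 0.05 ± 0.10 SE and 0.09 ± 0.09 SE. Arrays of the groups were interleaved in these 4 probe sets. MRPL44, whose fold resembles that of a double-strand RNA nuclease, was dim and at 0.03 ± 0.08 SE.

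Proteins of the central protuberance, the part that faces the small subunit above the transfer RNAs, include MRPL18, MRPL40, MRPL46, MRPL48 and MRPL58. MRPL18, which contacts RNA at this site, was at 6.12, 6.29 and 6.13 in implantation sites, against 6.19, 6.07 and 5.97 in interimplantation sites (0.11 ± 0.08 SE). MRPL58, a peptidyl-tRNA hydrolase related to bacterial release factors, was at 3.07, 3.34 and 3.42 in implantation sites, against 3.18, 3.19 and 3.39 in interimplantation sites (0.02 ± 0.10 SE). MRPL40 and MRPL46 were at −0.03 ± 0.09 SE and 0.06 ± 0.08 SE. Apart from MRPL48, groups overlapped at each of these.

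Among the remaining large-subunit members, MRPL28 had the largest negative difference. It was at 5.87, 6.01 and 5.88 in implantation sites, against 6.28, 5.97 and 5.87 in interimplantation sites (−0.12 ± 0.10 SE). Interimplantation site 1 was the highest array there, and the other two interimplantation arrays lay within or at the edge of the range of implantation sites. Without interimplantation site 1 the difference was −0.000985. MRPL42, mitochondrion-specific and among the brightest members, was at 6.27, 6.21 and 6.26 in implantation sites, against 6.05, 6.23 and 6.15 in interimplantation sites (0.10 ± 0.08 SE). MRPL33, a small protein with a bacterial counterpart, was at 4.39, 4.43 and 4.31 in implantation sites, against 4.13, 4.27 and 4.37 in interimplantation sites (0.12 ± 0.08 SE). MRPL13, MRPL15, MRPL19, MRPL34, MRPL35, MRPL41, MRPL49 and MRPL52 lay between −0.06 and 0.10, each with overlapping groups.

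In the decoding part of the small subunit MRPS12, the protein at the decoding centre, is read by 4 probe sets. The brightest was at 4.64, 4.97 and 4.76 in implantation sites, against 4.71, 4.83 and 5.33 in interimplantation sites (−0.17 ± 0.14 SE). Interimplantation site 3 was high there, and without it the difference was 0.02, with the opposite sign. The other 3 probe sets were at 0.10, 0.02 and 0.02. MRPS7, MRPS10 and MRPS14, proteins of the head, were at −0.06 ± 0.09 SE, 0.05 ± 0.08 SE and, at the brighter of the probe sets of MRPS14, −0.08 ± 0.07 SE. Groups overlapped in all of these probe sets.

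The body and platform held MRPS15 and MRPS17, at −0.04 ± 0.07 SE and −0.10 ± 0.14 SE. Mitochondrion-specific members had differences of similar size. MRPS35 was at 4.18, 3.89 and 4.09 in implantation sites, against 3.83, 4.01 and 3.91 in interimplantation sites (0.13 ± 0.09 SE). MRPS22, in which inherited mutations are known to cause mitochondrial disease, was at 5.93, 6.07 and 5.97 in implantation sites, against 5.96, 5.87 and 5.89 in interimplantation sites (0.08 ± 0.07 SE). MRPS27, an RNA-binding protein with pentatricopeptide repeats, was at 0.07 ± 0.07 SE and MRPS33 at −0.01 ± 0.08 SE. MRPS28, which has a bacterial counterpart, was at −0.00 ± 0.09 SE. In these 5, too, the groups overlapped.

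The 3 MRPS18 paralogs, all related to the same bacterial protein, were at small differences of mixed sign. MRPS18A was at 5.52, 5.66 and 5.60 in implantation sites, against 5.40, 5.73 and 5.79 in interimplantation sites at its brighter probe set (−0.05 ± 0.10 SE), and at −0.10 ± 0.10 SE at the other. MRPS18B was at 5.46, 5.40 and 5.41 in implantation sites, against 5.29, 5.28 and 5.63 in interimplantation sites at its brighter probe set (0.02 ± 0.10 SE). MRPS18C was below the first quartile, at 2.23, 2.30 and 2.42 in implantation sites, against 2.35, 2.32 and 2.36 in interimplantation sites (−0.03 ± 0.08 SE).

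MRPS18A and MRPS30 carry small-subunit symbols, although structures of the mammalian ribosome place their proteins in the large subunit. MRPS30 was at 0.09 ± 0.07 SE and 0.08 ± 0.07 SE at its probe sets. At the probe set without overlap it was at 4.26, 4.29 and 4.21 in implantation sites, against 4.21, 4.19 and 4.11 in interimplantation sites, and the nearest arrays of the groups are equal at this rounding. Moving both genes to the large subunit gave 28 of 39 probe sets above 0 in the large subunit and 13 of 25 in the small subunit, with medians of 0.06 and 0.01.

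Probe sets of the same gene differed in sign at some genes. Of the 10 genes with several probe sets (23 probe sets in all), MRPL9, MRPL20, MRPS11, MRPS18A and MRPS30 kept a single sign. The other five, MRPL57, MRPS12, MRPS14, MRPS18B and MRPS31, had probe sets on both sides of 0. At each of the 10 genes the 95% intervals shared a common value, and agreement between probe sets was not tested. MRPL9, which reaches out from the large subunit, was at 4.62, 4.59 and 4.51 in implantation sites, against 4.57, 4.34 and 4.49 in interimplantation sites at its brighter probe set. The difference was 0.11 ± 0.08 SE there and 0.11 ± 0.08 SE at the dim one.

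MRPL20, an early assembly protein in bacteria, was dim at both probe sets. The one with the smaller p was at 2.97, 3.00 and 2.86 in implantation sites, against 2.94, 2.83 and 2.62 in interimplantation sites (0.15 ± 0.09 SE), and the other was at 0.08 ± 0.12 SE. MRPS31, mitochondrion-specific and dim as well, was at 1.94, 2.14 and 2.08 in implantation sites, against 2.12, 2.25 and 2.20 in interimplantation sites at the dimmer probe set (−0.13 ± 0.08 SE), and at 0.05 ± 0.08 SE at the other. Groups overlapped at each of these probe sets. MRPL57, another mitochondrion-specific protein, was at 4.60, 4.56 and 4.51 in implantation sites, against 4.45, 4.63 and 4.26 in interimplantation sites at its brightest probe set (0.11 ± 0.10 SE), and at 0.03 ± 0.08 SE and −0.00 ± 0.08 SE at the others. MRPS14 was at 5.61, 5.52 and 5.56 in implantation sites, against 5.68, 5.57 and 5.70 in interimplantation sites at its brighter probe set, whose difference is given above, and at 0.06 ± 0.07 SE at the dim one.

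**Figure D4:**
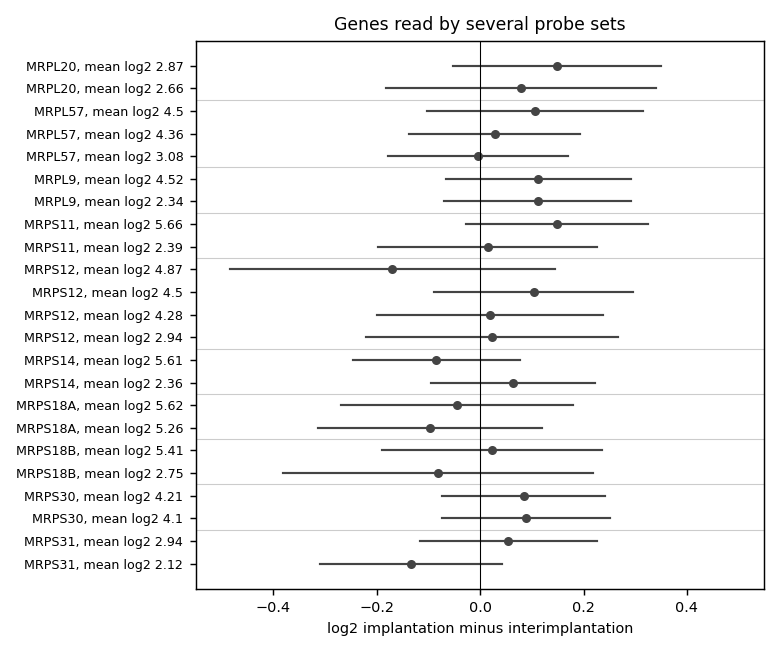
Differences (log2 implantation minus interimplantation) with 95% intervals from limma are drawn for the 10 genes read by several probe sets, each row labelled with the mean log2 value of its probe set over 6 arrays. Every interval includes 0, and intervals of the same gene overlap.

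By origin of the proteins, over both subunits, probe sets of proteins with a bacterial counterpart had a median of 0.04 (38 probe sets, 24 above 0), and those of mitochondrion-specific proteins a median of 0.03 (26 probe sets, 17 above 0). MRPS18A and MRPS18B were counted here with the mitochondrion-specific proteins. Within the large subunit, with MRPS18A and MRPS30 placed there, the medians were 0.09 (22 probe sets) and 0.03 (17), and within the small subunit 0.01 (16) and 0.02 (9), none of which was tested against another. By brightness the medians were 0.06 for the 33 bright probe sets and 0.02 for the other 31. Mitochondrial ribosomal proteins under other symbols were few. GADD45GIP1, a large-subunit protein, was at 5.55, 5.52 and 5.56 in implantation sites, against 5.46, 5.42 and 5.32 in interimplantation sites at its brighter probe set (0.15 ± 0.07 SE, limma adjusted p = 0.531). DAP3, a GTP-binding protein of the small subunit, was at 0.10 ± 0.11 SE, and PTCD3, which takes part in messenger RNA binding, at −0.03 ± 0.09 SE.

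Other genes of mitochondrial protein synthesis gave few calls, read against the same 0.702% and 0.356% of all probe sets. Among 11 probe sets of translation factors 0 passed in either direction, with a median of −0.01. TUFM, the elongation factor that brings aminoacyl-tRNA to the ribosome, came closest, at 6.47, 6.47 and 6.42 in implantation sites, against 6.07, 6.18 and 6.19 in interimplantation sites. All implantation arrays were above all interimplantation arrays, and the difference was 0.31 ± 0.07 SE (limma adjusted p = 0.0866). TSFM, its nucleotide exchange factor, was at −0.14 ± 0.09 SE at its brightest probe set. Mitochondrial tRNA synthetases (14 probe sets, median 0.01) and assembly factors of the ribosome (21 probe sets, median −0.03) had 0 calls each. An unadjusted p under 0.05, which 5.27% of all probe sets reached on the higher side and 5.23% on the lower side, was reached by 2 higher and 2 lower synthetase probe sets and by 0 of the assembly factors. Of the translation factors, 1 was higher and 0 were lower by this rule.

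For mitochondrial DNA and transcription 0 of 21 probe sets passed, and the median was −0.03. By unadjusted p under 0.05, 1 was higher and 3 were lower, to be read against the same 5.27% and 5.23%. TFAM, which packs mitochondrial DNA and starts its transcription, was at 6.03, 5.74 and 5.77 in implantation sites, against 6.13, 6.13 and 6.10 in interimplantation sites at its brightest probe set (−0.28 ± 0.09 SE, limma adjusted p = 0.244). Its other probe sets were at −0.15 ± 0.07 SE and 0.09 ± 0.09 SE. Regulators of mitochondrial biogenesis, among them NRF1 and GABPA, had 0 calls in 22 probe sets and a median of 0.03. By unadjusted p under 0.05, 0 of them were higher and 2 lower. The lowest difference of this list is the −0.28 of TFAM given above, so the lists share probe sets. Import and folding, through which every mitochondrial ribosomal protein passes, had 2 calls among 39 probe sets, both higher and both of the chaperonin HSPD1 (0.85 ± 0.09 SE and 0.48 ± 0.10 SE, limma adjusted p = 0.00122 and 0.0437), and a median of 0.04. TOMM70, an import receptor, was at 6.18, 5.88 and 5.90 in implantation sites, against 5.45, 5.70 and 5.58 in interimplantation sites (0.41 ± 0.10 SE, limma adjusted p = 0.0907), and its dimmer probe set at 0.08 ± 0.13 SE. Factors that assemble the respiratory complexes had 0 calls among 37 probe sets, with a median of 0.03. By unadjusted p under 0.05, import and folding had 6 higher and 2 lower, and these assembly factors 2 higher and 0 lower.

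The arrays differed in other measures as well, and in bulk tissue fewer cells of a type and less RNA per cell cannot be told apart. Calls of the marker lists are read against the 0.702% higher and 0.356% lower of all probe sets. Proliferation markers had 3 calls among 21 probe sets, all higher. Their means were 4.23 to 4.27 in implantation sites and 4.01 to 4.06 in interimplantation sites. Smooth muscle markers had 2 calls among 24, both lower, with means of 4.14 to 4.19 in implantation sites and 4.24 to 4.30 in interimplantation sites. Epithelium markers had 0 calls among 12, with means of 4.13 to 4.19 in implantation sites and 4.22 to 4.31 in interimplantation sites. Endothelium (12 probe sets) and leukocyte markers (11) had 0 calls, and stroma markers 1 higher and 1 lower among 20. Of the markers fixed for uterus, ESR1, PGR and WT1 were measured under a single symbol, and PGR had a mean of 3.28, below the median of all probe sets. They gave 1 call among 12 probe sets, a probe set of WT1, which was higher (0.74 ± 0.13 SE, limma adjusted p = 0.0191), while the other WT1 probe set was at −0.02. The log2 difference of the 3′ and 5′ probe sets of a control gene is meant as a measure of RNA quality. Its level also depends on how well each human probe set matches the hamster transcript. For actin this difference was −2.08 ± 0.22 in implantation sites and −1.70 ± 0.15 in interimplantation sites (SD, n = 3, exact permutation p = 0.1, two-sided, the smallest possible). For GAPDH it was −0.20 ± 0.16 in implantation sites and 0.13 ± 0.17 in interimplantation sites, with overlapping groups (exact permutation p = 0.2, n = 3). The part of these measures in the large-subunit average was not tested. Over all probe sets, correlations ran from 0.989 to 0.995 within groups and from 0.985 to 0.992 between them.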

How the data were processed

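Log2 values of each probe set on each array were deposited by the authors, who used Partek 6.6 and RMA according to the submitters' processing notes. Further settings were not given, and the log base was read from the range of the values (1.65 to 12.1). RMA evens out the arrays, so a change of total RNA output is not visible. Of 22283 probe sets, 68 controls were left out. Genes were named from the platform annotation: 19065 probe sets had a single symbol, 1043 several and 2107 none. The comparison used limma 3.58.1 (R 4.3.3; lmFit and eBayes, two-sided, without covariates), and p-values were adjusted over 22215 probe sets by Benjamini-Hochberg, with a threshold of 0.05. Differences are given with limma's SE and 95% intervals. The fit was tested on simulated data. The number of arrays limits the precision, and no batch was recorded in the labels. The members and lists were chosen with earlier results of these data known. Named with array values were, in each subunit, the 6 higher and 4 lower probe sets with the smallest p, the 3 brightest, genes with several probe sets (array values for 1 or more of them), the MRPS18 paralogs and MRPS30. Among the 6 higher of the small subunit, the overlapping probe set of MRPS30 and a dimmer probe set of MRPS12 are given by their differences only. Others, including all context genes, were named after their values were seen. No set test was run, and a planned search of promoter motifs was not run. Alternatives covered normalization, filters, replicate blocks, weights, single arrays left out and gene-level fits.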

Additional observations from a re-analysis of the deposited data

How the results depend on the processing

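No subunit had a probe set past the threshold under any of the alternatives run, in either direction, and the 41 named members gave adjusted p-values of at least 0.148 (limma) over 603 fits of single members. Signs changed in 27 of these fits, at 13 members, among them the brightest probe set of MRPS12 (−0.17, and 0.02 without interimplantation site 3). The large-subunit median ranged from 0.03 to 0.10. The small-subunit median ranged from −0.01 to 0.03, and was negative with array weights, without _x_at and _s_at probe sets, and in both gene-level fits. With the replicate number as a block (replicate block) the limma adjusted p was 0.254 for MRPL11, 0.286 for MRPL12 and 0.383 for MRPS16. No member was called there. Same-numbered arrays had correlations of their deviations of 0.05, −0.00 and 0.07, against −0.07 to 0.02 for differently numbered arrays. All of these were weak, and no label ties the numbers to animals. At an unadjusted p under 0.05 the small subunit had 0 members without implantation site 1 or any 1 interimplantation site and 2 without implantation site 2.

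The background moved more. The 156 higher and 79 lower calls over all probe sets ranged from 83 to 140 and from 33 to 90 with single arrays left out: 86 and 33 without implantation site 1, 101 higher without implantation site 2, 92 and 38 without implantation site 3, 42 lower without interimplantation site 2, and 83 and 42 without interimplantation site 3. Lower calls were 133 with array weights. Calls were 37 and 20 without _x_at and _s_at probe sets, where fewer were tested. Of genes, 93 were higher at the brightest probe set, and 73 were higher and 26 lower at the mean of probe sets.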
